A study of Rattus norvegicus with 12 samples.

Results

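The D cyclins Ccnd1, Ccnd2 and Ccnd3, the CDK inhibitors Cdkn1a, Cdkn1b, Cdkn2a, Cdkn2b and Cdkn2c, and the stress gene Gadd45b were followed across 6 rat cell lines. They were chosen by name: every probe set whose only gene symbol was one of these 9 was taken. This gave 14 probe sets for 9 of the 14218 genes on the array. All 9 genes were among the 11001 tested, and each gene was represented by its brightest probe set, by the mean of all 12 arrays. The induced pluripotent stem (iPS) lines A1 and A2 came from FHH rats, were made with a transposon system and were grown on mitomycin C-treated mouse feeder fibroblasts. The embryonic stem (ES) lines were DAC2 and DAC8, for which no strain is stated. The embryonic fibroblast (EF) cultures REF1 and REF2 were FHH cells from e14.5 embryos. Each line had 2 arrays, which the labels do not place in separate cultures, so p-values between lines measure only the spread between these arrays and may be technical. iPS and ES cells were in 2i medium and collected 5 days after passage, and EF cells were in MEF medium and collected 6 days after passage, so medium and day cannot be told apart from the EF label. The values are log2 signals as deposited, on which a difference of 1 unit is 2-fold. Levels of different genes come from different probes and are not set against each other.

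The arrays of 2 lines carried the markers of another label, and those of the iPS lines held only some of the pluripotency markers. The arrays labelled DAC8, an ES line, held 11 of 12 fibroblast markers at or above 5 and only 3 of 8 pluripotency markers. The arrays labelled REF2, a fibroblast culture, held all 8 pluripotency markers and 7 of 7 epithelial markers at or above 5, and only 3 of 12 fibroblast markers. DAC2 had 8 of 8 pluripotency markers and REF1 had 11 of 12 fibroblast markers. In the iPS lines 4 of 8 (A1) and 5 of 8 (A2) pluripotency markers reached 5, with medians of 4.96 in A1 and 5.18 in A2 against 10.55 in DAC2, and 0 of 7 epithelial markers did so in either line. Esrrb, which maintains naive pluripotency, was at 4.77 in A1 and 4.82 in A2. Sox2 (9.43 in A1, 9.31 in A2), Sall4 (8.22 and 8.25) and Klf4 (6.85 and 6.15) were above 5 in both. All 10 neural markers reached 5 in both iPS lines, with medians of 10.69 in A1 and 10.65 in A2. The name iPS is used below as a label only. The labels do not say whether the mouse feeder cells were removed before RNA extraction, and their part in the iPS values was not tested. On these rat probes 4 of 12 fibroblast markers reached 5 in A1 and 4 of 12 in A2. The highest was Pdgfra (9.50 in A1, 9.36 in A2), while Postn (3.61 in A1, 3.48 in A2) and Col1a1 (4.35 in A1, 4.34 in A2) were under 5. The lines are given below one by one, and cell types are compared both with the arrays labelled DAC8 and REF2 and without them. These are bulk cultures, in which fewer cells of a type and less RNA per cell cannot be told apart. Array medians lay between 5.28 and 5.41, and the arrays of a line correlated at 0.9959 to 0.9976 over the 11001 tested genes.

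D-type cyclins bind CDK4 and CDK6 in G1 and, by phosphorylating the retinoblastoma protein, release E2F transcription factors that start S phase. INK4 inhibitors (Cdkn2a, Cdkn2b, Cdkn2c) bind CDK4 and CDK6 and keep the cyclins off. CIP/KIP inhibitors (Cdkn1a, Cdkn1b) bind whole cyclin-CDK complexes. In mouse, ES cells have a short G1 and little INK4 protein, whereas fibroblasts kept in culture build up INK4 proteins and Cdkn1a.

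At least 1 pair of lines differed by a called amount in every member except Cdkn1b. Ccnd2 was below 5 in DAC2 and REF2 and near 12 in the other lines. Cdkn2a was highest in the iPS lines, Ccnd3 and Gadd45b were lowest there, Cdkn1a was highest in DAC8 and REF1, and Ccnd1 was highest in DAC2 and lowest in A2. With limma and the 6 lines as the factor, 76 of 135 member differences (9 genes in 15 pairs of lines) were called, that is, had a Benjamini-Hochberg adjusted p under 0.05 and were at least 2-fold. Over all tested genes 27.9% of such differences were called. In the 6 pairs that leave out DAC8 and REF2, 33 of 54 member differences were called, against 27.8% over all genes. All 45984 differences of at least 1 log2 unit in the whole table also passed the adjusted p, so the fold minimum decided every call. The members were chosen with results of these data known, and the counts describe them without setting them apart from other genes.

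**Figure D1:**
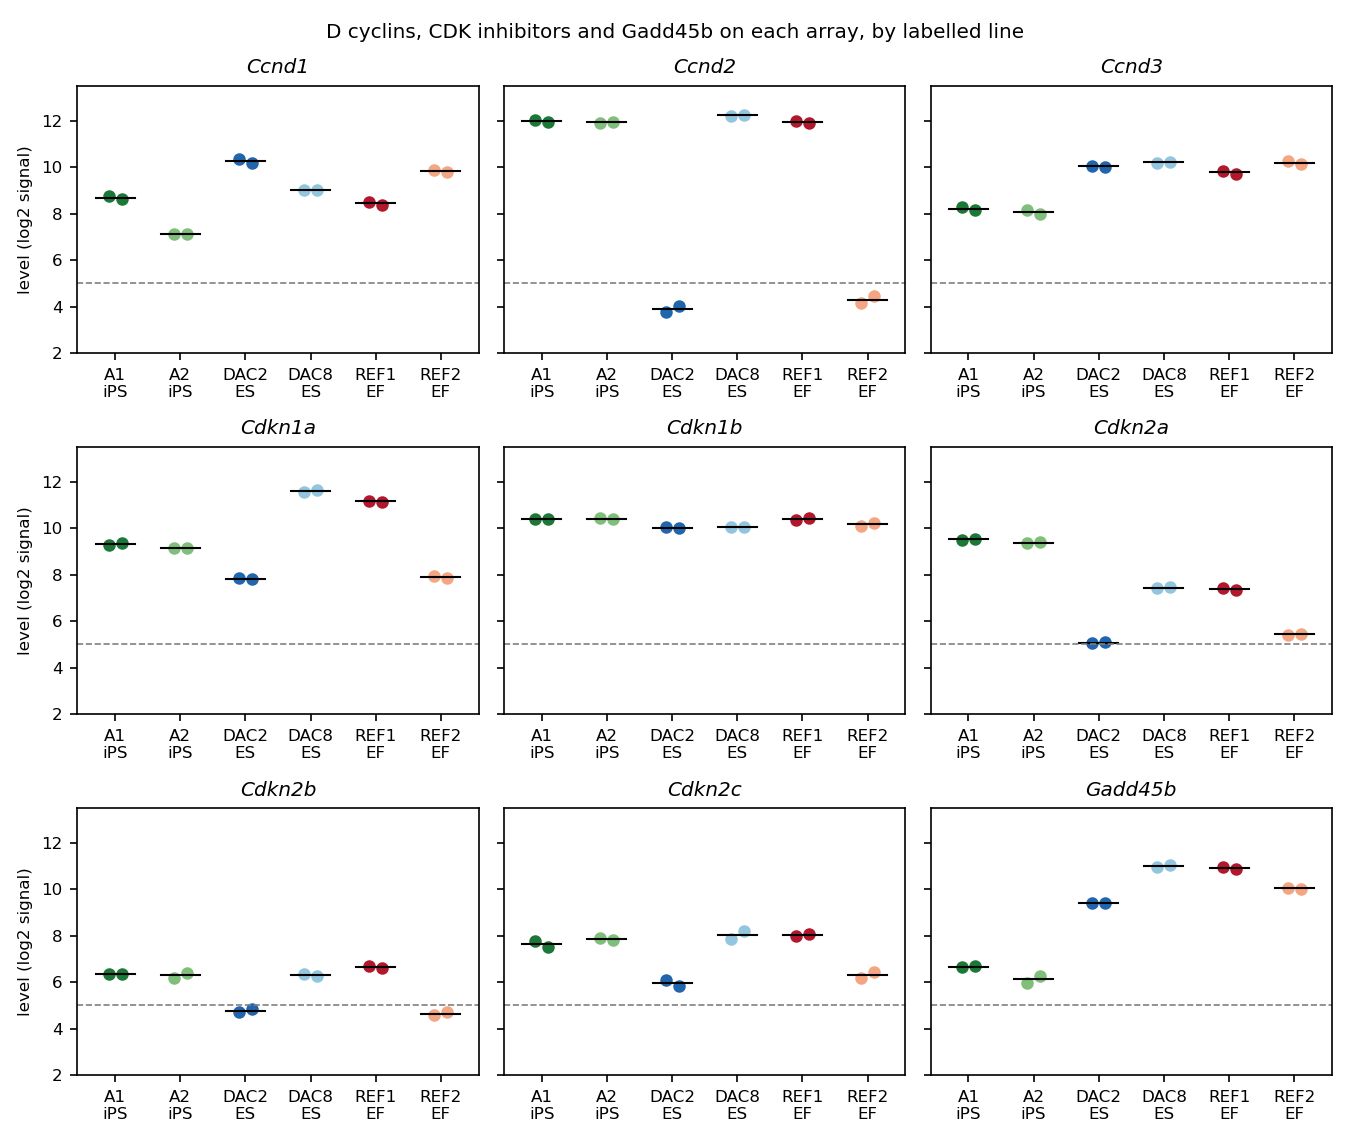
Each panel plots 1 gene; each point is 1 array (log2 signal, vertical axis) and each short bar is the mean of the 2 arrays of a line, with lines on the horizontal axis and the dashed line at the floor of 5. Ccnd2 lies below the floor in DAC2 and REF2, Ccnd3 and Gadd45b are lowest in A1 and A2, and Cdkn1b is nearly level.

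Ccnd2, a D cyclin that many differentiated and neural progenitor cells use, divided the lines most widely. Its single probe set (1370810_at, gene at chr4:161653048-161675422 in GRCr8) read 12.02 and 11.94 in A1, 11.92 and 11.95 in A2, 3.79 and 4.02 in DAC2, 12.20 and 12.27 in DAC8, 11.98 and 11.90 in REF1, and 4.13 and 4.44 in REF2. The arrays of DAC2 and REF2 did not overlap those of any other line, and both line means were under the floor of 5. For the members, values under the floor were not read as levels, so Ccnd2 differences from DAC2 and REF2 are given as bounds against the floor. Call counts, correlations and the values of other genes are on the deposited values. A1 was at least 126-fold higher than DAC2 (6.98 log2 units above the floor, n = 2 arrays each), with a limma adjusted p of 3.69e-11 on the deposited values. REF1 was at least 123-fold higher than REF2. A1, A2, DAC8 and REF1 lay within 0.30 of each other, and none of their 6 pairs was called.

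Ccnd1, the D cyclin most closely tied to growth factor signalling, was above 5 in every line. Its probe set (1383075_at, chr1:209518288-209527986) read 8.75 and 8.62 in A1, 7.13 and 7.12 in A2, 10.37 and 10.17 in DAC2, 9.0 and 9.04 in DAC8, 8.52 and 8.38 in REF1, and 9.86 and 9.81 in REF2. In descending order of line means the lines were DAC2 (10.27 ± 0.14, SD, n = 2), REF2 (9.84 ± 0.04), DAC8 (9.02 ± 0.03), A1 (8.68 ± 0.09), REF1 (8.45 ± 0.10) and A2 (7.12 ± 0.01). Of the neighbours in that order, REF1 and A2 differed by a called amount (A2 minus REF1 -1.32 ± 0.08, SE); the others were under 2-fold apart, and DAC8 minus REF2 was -0.82 with an adjusted p of 1.2e-05 in limma. Ccnd1 was called in 10 of 15 pairs.

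Ccnd1 was also the only member called between the 2 iPS lines, where 0.227% of tested genes were called. A1 exceeded A2 by 1.56 ± 0.08 log2 units (SE, 2.94-fold, limma adjusted p = 1.17e-07). All 3 Ccnd1 probe sets gave this order of the lines: the other probe sets (1371643_at and 1371150_at) had the same sign in 15 of 15 pairs and were called in 9 and 10. They read 8.51 and 7.28 in A1 and 7.04 and 5.83 in A2.

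Ccnd3, the third D cyclin, was lowest in the iPS lines. Its probe set (1369935_at, chr9:20891696-20987199) read 8.27 and 8.14 in A1, 8.14 and 7.99 in A2, 10.05 and 10.03 in DAC2, 10.19 and 10.24 in DAC8, 9.85 and 9.73 in REF1, and 10.26 and 10.13 in REF2. The iPS arrays lay at 7.99 to 8.27 and all others at 9.73 to 10.26. Each iPS line differed from each of the other 4 lines by a called amount, from -1.59 (A1 minus REF1) to -2.15 ± 0.08 (A2 minus DAC8, SE, 4.43-fold, limma adjusted p = 9.78e-09). DAC2, DAC8, REF1 and REF2 lay within 0.42 of each other, with no pair among them called.

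**Figure D2:**
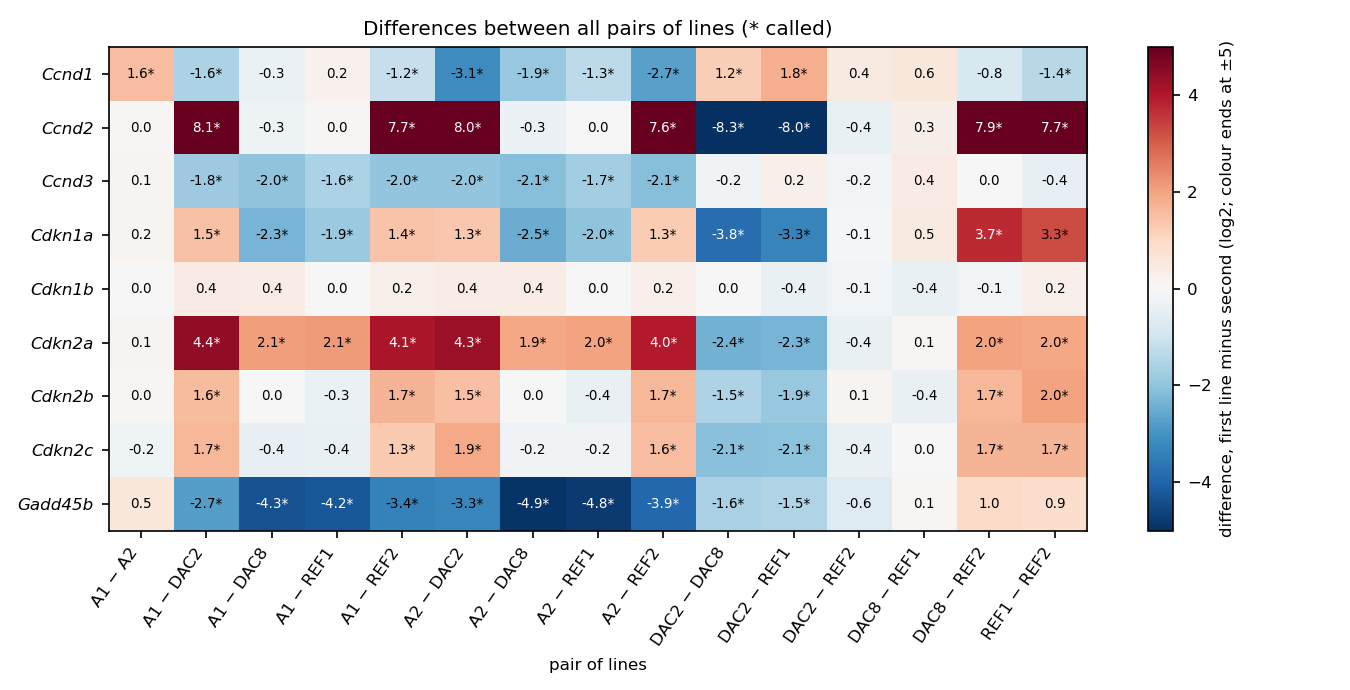
Each cell gives the difference (log2, first line minus second) of 1 gene (rows) between 2 lines (columns), coloured from blue (negative) to red (positive) with the colour scale ending at 5 units; an asterisk marks a called difference, and the differences of Ccnd2 and Cdkn2b from DAC2 or REF2 use values under the floor of 5. The Cdkn1b row has no asterisk, and Ccnd1 has the only asterisk in the A1 minus A2 column.

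Cdkn2a, which encodes both the INK4 inhibitor p16Ink4a and the p53 activator Arf, was highest in the iPS lines. Its probe set (1369194_a_at, chr5:109100763-109114448) is of the kind that reads several transcripts of a gene, and the 2 products were not told apart. It read 9.48 and 9.55 in A1, 9.37 and 9.40 in A2, 5.05 and 5.09 in DAC2, 7.43 and 7.45 in DAC8, 7.43 and 7.33 in REF1, and 5.39 and 5.46 in REF2. The lines formed 3 levels that did not overlap: A1 and A2 at 9.37 to 9.55, DAC8 and REF1 at 7.33 to 7.45, and DAC2 and REF2 at 5.05 to 5.46. A1 exceeded DAC2 by 4.45 ± 0.06 (SE, 21.8-fold, limma adjusted p = 3.28e-11) and REF1 by 2.14 (4.4-fold). All 12 pairs across these levels were called and the 3 pairs within them were not.

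Cdkn2b, the INK4 inhibitor beside Cdkn2a on chromosome 5 and known as a transforming growth factor beta target, followed another order. Its probe set (1369193_at, chr5:109123308-109134906) read 6.35 and 6.33 in A1, 6.19 and 6.40 in A2, 4.70 and 4.85 in DAC2, 6.36 and 6.25 in DAC8, 6.71 and 6.60 in REF1, and 4.57 and 4.70 in REF2. A1, A2, DAC8 and REF1 averaged 6.29 to 6.66, and DAC2 and REF2 averaged 4.77 and 4.63, under the floor. Thus A1 minus REF1 was -0.32 for Cdkn2b and 2.14 for Cdkn2a, which sets differences, not levels, of neighbouring genes side by side. All 8 pairs that set DAC2 or REF2 against A1, A2, DAC8 or REF1 were called on the deposited values. As bounds against the floor, A2 was at least 2.45-fold higher than DAC2 and REF1 at least 3.16-fold higher than REF2 (limma adjusted p = 2.89e-07 and 3.9e-08).

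Cdkn2c, the INK4 inhibitor p18Ink4c, known in neural progenitors, had the same 8 pairs called. Its main probe set (1370054_at, chr5:129639736-129645564) read 7.76 and 7.53 in A1, 7.92 and 7.82 in A2, 6.09 and 5.84 in DAC2, 7.87 and 8.21 in DAC8, 7.98 and 8.08 in REF1, and 6.19 and 6.45 in REF2. A1, A2, DAC8 and REF1 lay at 7.53 to 8.21, and DAC2 and REF2 at 5.84 to 6.45. DAC2 minus DAC8 was -2.07 ± 0.14 (SE, limma adjusted p = 7.83e-07). The second probe set (1378711_x_at), of a kind whose probes can also match other genes, stayed at 5.28 to 5.88 on line means, had the same sign in only 4 of 15 pairs and was called in 0 of them. The Cdkn2c result therefore rests on 1 probe set, and with the mean of both none of its 8 calls was left.

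Since Cdkn2a, Cdkn2b and Cdkn2c were lowest in DAC2 and REF2 by the probe sets that stand for them, and Ccnd3 and Gadd45b were both lowest in the iPS lines, the 250 bases before the RefSeq start of these 5 genes are shown. Cdkn2d, the fourth INK4 gene, did not share this order, being lowest in REF1 (7.58), and is not shown. The stretches are given as in RefSeq (GRCr8, all on the minus strand, printed 5′ to 3′ along the gene). The table's start need not be the outermost of a gene, and the stretches of Cdkn2a, Cdkn2c, Ccnd3 and Gadd45b lie inside the gene's span, while that of Cdkn2b overlaps its end. Capitals mark 4 motifs searched on both strands. The GC box was spelled GGGCGG. The core of the cyclic AMP response element was spelled TGACGT. The E box searched was the palindrome CACGTG. The CCAAT box was read by the letters of its name.
Cdkn2a (chr5:109107957-109108206): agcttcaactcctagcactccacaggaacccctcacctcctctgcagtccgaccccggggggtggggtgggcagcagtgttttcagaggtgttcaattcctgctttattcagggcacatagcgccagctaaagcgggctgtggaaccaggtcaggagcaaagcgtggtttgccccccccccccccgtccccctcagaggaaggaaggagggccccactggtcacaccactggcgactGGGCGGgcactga
Cdkn2b (chr5:109134856-109135105): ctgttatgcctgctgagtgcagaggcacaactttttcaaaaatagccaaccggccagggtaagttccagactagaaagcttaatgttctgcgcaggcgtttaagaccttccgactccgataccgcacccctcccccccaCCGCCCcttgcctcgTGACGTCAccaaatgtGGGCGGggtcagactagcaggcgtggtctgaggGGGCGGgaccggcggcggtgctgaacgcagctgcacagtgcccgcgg
Cdkn2c (chr5:129644892-129645141): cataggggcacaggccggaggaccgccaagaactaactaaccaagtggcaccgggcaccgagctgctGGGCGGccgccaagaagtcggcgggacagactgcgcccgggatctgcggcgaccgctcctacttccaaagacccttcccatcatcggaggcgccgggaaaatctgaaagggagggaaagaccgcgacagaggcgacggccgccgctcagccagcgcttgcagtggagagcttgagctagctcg
Ccnd3 (chr9:20897876-20898125): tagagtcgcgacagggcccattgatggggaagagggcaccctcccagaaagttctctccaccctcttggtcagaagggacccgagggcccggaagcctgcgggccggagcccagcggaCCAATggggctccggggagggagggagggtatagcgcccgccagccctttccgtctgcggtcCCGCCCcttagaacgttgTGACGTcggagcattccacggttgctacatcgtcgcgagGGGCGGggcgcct
Gadd45b (chr7:9430719-9430968): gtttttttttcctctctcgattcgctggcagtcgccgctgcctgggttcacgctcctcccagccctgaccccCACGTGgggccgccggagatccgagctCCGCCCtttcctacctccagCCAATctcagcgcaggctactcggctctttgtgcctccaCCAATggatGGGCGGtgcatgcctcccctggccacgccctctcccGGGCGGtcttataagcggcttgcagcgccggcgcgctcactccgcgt

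Promoter sequences were found for 7 of the 9 members. The motifs were chosen with these sequences in view. The GC box was in all 5 printed stretches and in 30.5% of 33469 RefSeq promoters of the same length. Among members not printed, Cdkn1b had 1 GC box and 2 CCAAT boxes, and Cdkn1a had none of the 4 motifs. The Cdkn2b stretch held 3 GC boxes and the palindrome TGACGTCA, which counts as 2 overlapping matches of TGACGT, 1 on each strand. The Ccnd3 stretch held 1 TGACGT and 2 GC boxes. TGACGT was in 6.95% of promoters. The Gadd45b stretch held the only E box of the 5, a motif found in 5.59% of promoters, and 2 CCAAT boxes. CCAAT was in 34% of promoters, and Ccnd3 had 1. Cdkn2a and Cdkn2c each held 1 GC box and none of the other motifs. A match is a description of the letters and not a bound site.

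Cdkn1a, which encodes p21 and is a textbook target of p53, was highest in DAC8 and REF1. Its main probe set (1388674_at, chr20:7150820-7161373) read 9.26 and 9.35 in A1, 9.15 and 9.16 in A2, 7.86 and 7.79 in DAC2, 11.58 and 11.67 in DAC8, 11.18 and 11.14 in REF1, and 7.94 and 7.85 in REF2. A1 and A2 lay at 9.15 to 9.35, DAC2 and REF2 at 7.79 to 7.94, and DAC8 and REF1 at 11.14 to 11.67. A1 minus DAC8 was -2.32 ± 0.06 and A1 minus DAC2 was 1.48 ± 0.06 (SE), both called, among 12 called pairs. DAC2 minus DAC8 was -3.80, a 13.9-fold difference (limma adjusted p = 8.25e-11).

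The second Cdkn1a probe set (1387391_at) gave part of this order. It averaged 7.78 to 7.98 in A1, A2, DAC2 and REF2, 10.62 in DAC8 and 10.21 in REF1. DAC8 and REF1 were again above each other line in all 8 pairs. The differences of the iPS lines from DAC2 and REF2 were -0.08 (A1 minus DAC2) to -0.20 (A2 minus REF2), and none of the 4 was called (A1 minus DAC2 ± 0.12, SE, limma adjusted p = 0.592). The 4 calls of A1 and A2 over DAC2 and REF2 thus rest on 1 probe set.

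Cdkn1b, which encodes p27, was nearly level. Its probe set (1373812_at, chr4:169491273-169496500) read 10.42 and 10.42 in A1, 10.44 and 10.38 in A2, 10.05 and 10.01 in DAC2, 10.04 and 10.05 in DAC8, 10.37 and 10.44 in REF1, and 10.11 and 10.22 in REF2. Line means spanned 0.39 log2 units, from 10.03 in DAC2 to 10.42 in A1, and 0 of 15 pairs reached 2-fold. By the adjusted p alone 9 of 15 pairs passed, beside 69.9% of differences over all tested genes. A1 minus DAC2 was 0.39 ± 0.06 (SE, limma adjusted p = 0.000181). The second probe set (1369192_at) was under 5 in every line, at 4.01 to 4.47.

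**Figure D3:**
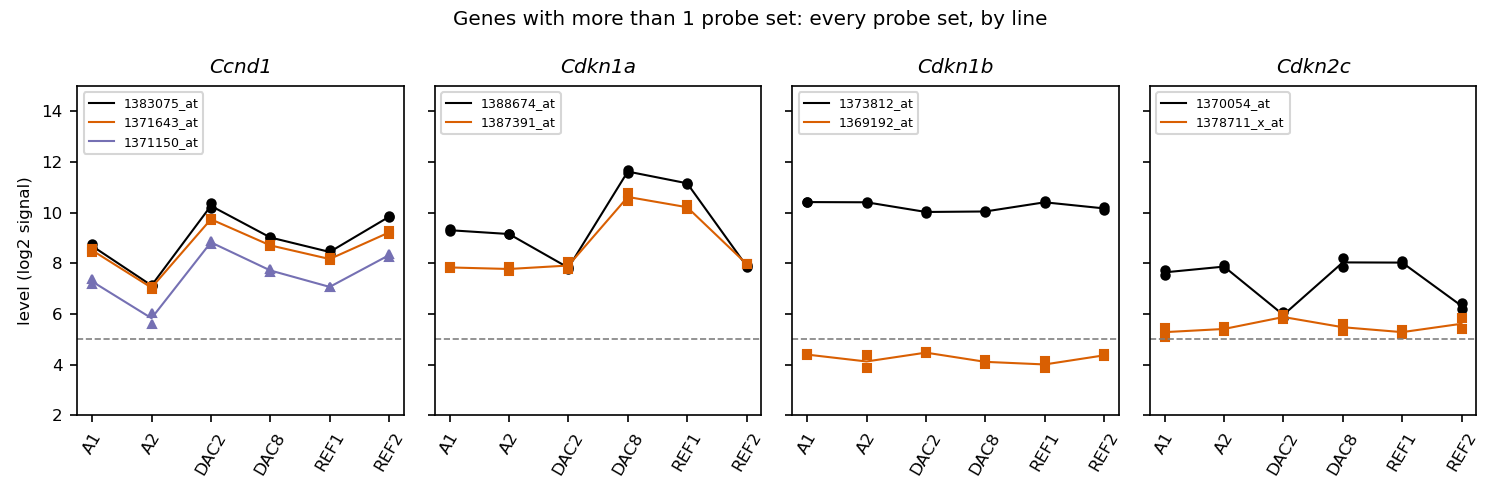
Points are single arrays and lines join the means of the 2 arrays of each line (horizontal axis), with 1 colour per probe set and log2 signal on the vertical axis; the dashed line is the floor of 5. The 3 Ccnd1 probe sets run in parallel, the second Cdkn1a probe set separates only DAC8 and REF1, and the second probe sets of Cdkn1b (4.01 to 4.47) and Cdkn2c (5.28 to 5.88) stay low.

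Gadd45b, a stress and growth arrest gene whose product activates stress kinase signalling, was lowest in the iPS lines. Its probe set (1372016_at, chr7:9428689-9430991) read 6.63 and 6.70 in A1, 5.97 and 6.28 in A2, 9.41 and 9.40 in DAC2, 10.97 and 11.05 in DAC8, 10.96 and 10.87 in REF1, and 10.07 and 10.02 in REF2. The iPS arrays lay at 5.97 to 6.70 and all others at 9.40 to 11.05. A2 minus DAC8 was -4.89 ± 0.09 (SE, 29.6-fold, limma adjusted p = 1.87e-10), and A1 minus DAC2, the smallest of the 8 differences between iPS and other lines, was -2.74. DAC2 lay below DAC8 and REF1 by called amounts (-1.61 and -1.51). DAC8 minus REF2 was 0.97, just short of 2-fold, and passed it at 1.01 without DAC8 replicate 1. The family members Gadd45a and Gadd45g spanned 1.54 and 1.31 over the line means. Gadd45a was highest in REF2 (8.53), and Gadd45g was at 10.33 in A1, 10.42 in A2 and lowest in DAC2 (9.40).

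Pair by pair, the members' calls stood beside the following shares of all tested genes. A1 and A2 were each called against DAC2 and against REF2 in 8 of 9 members, all except Cdkn1b, where the shares of all genes called were 29.8% for A1 minus DAC2, 30.6% for A1 minus REF2, 30.1% for A2 minus DAC2 and 31.1% for A2 minus REF2. Against DAC8 and REF1 the called members were Ccnd3, Cdkn1a, Cdkn2a and Gadd45b, with Ccnd1 added for A2. The shares of all genes there were 31.8% for A1 minus DAC8, 32.8% for A1 minus REF1, 31.9% for A2 minus DAC8 and 32.8% for A2 minus REF1. For Ccnd1 the difference between iPS lines was tested itself, in A1 minus A2.

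DAC2 differed from DAC8 and from REF1 in 7 members, all except Ccnd3 and Cdkn1b, beside 40.2% and 41% of all genes. DAC8 differed from REF2 in Ccnd2, Cdkn1a, Cdkn2a, Cdkn2b and Cdkn2c, beside 39.9% of genes. REF1 differed from REF2 in these 5 and in Ccnd1, beside 40.3% of genes. Lines of the same label thus differed in most members, with DAC2 set against DAC8 among ES lines and REF1 against REF2 among EF cultures. Between DAC2 and REF2, of different labels, limma called 0 of 9 members and 4% of all genes. At an unadjusted p under 0.05 there were 6 members, beside 5824 of the 11001 tested genes. Between DAC8 and REF1 limma called 0 members and 1.53% of genes, with 6 members and 3685 genes under 0.05 unadjusted. Over all tested genes the median gene was called in 4 of 15 pairs, and 33.7% were called in at least 8.

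By labelled cell type, with the line as the unit (2 line means each), Ccnd3 was lower in iPS than in ES lines, by -1.99 ± 0.25 log2 units (SE, 3.98-fold, limma adjusted p = 0.0453). Its iPS arrays lay at 7.99 to 8.27 and its ES arrays at 10.03 to 10.24. It was 1 of 9 members called, beside 2.26% of all genes. The call ended without A1 replicate 2, REF1 replicate 1 or REF2 replicate 2 (adjusted p = 0.0518, 0.0514 and 0.0525) and without any 1 line (0.0855 to 0.618). For iPS against EF, where 2.53% of genes were called, limma called 0 of 9 members. At an unadjusted p under 0.05 there were 3 members, beside 1658 of the 11001 tested genes. Ccnd3 stood at -1.86 ± 0.25 with an adjusted p of 0.0501, and passed without A1 replicate 1, REF1 replicate 2 or REF2 replicate 1 (0.048, 0.0441 and 0.0482).

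Gadd45b was the next closest, at -3.81 ± 0.68 for iPS minus ES (SE, limma adjusted p = 0.0943) and -4.08 ± 0.68 for iPS minus EF (adjusted p = 0.0777). Cdkn2a stood at 3.20 ± 1.06 and 3.05 ± 1.06 (adjusted p = 0.298 and 0.299). Neither passed the test. Their iPS arrays nevertheless did not overlap the others: Gadd45b read 5.97 to 6.70 in iPS, 9.40 to 11.05 in ES and 10.02 to 10.96 in EF arrays, and Cdkn2a read 9.37 to 9.55 in iPS, 5.05 to 7.45 in ES and 5.39 to 7.43 in EF arrays. In all, the iPS and ES arrays did not overlap in 5 members, beside 42.1% of all genes, and the iPS and EF arrays in 3, beside 43.5%.

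The means of Ccnd2, Cdkn1a, Cdkn2b and Cdkn2c over ES and over EF lines averaged 1 high and 1 low line. For Ccnd2 the iPS minus ES difference was 3.89 ± 3.83 on the deposited values (SE, limma adjusted p = 0.732). For ES against EF limma called 0 of 9 members and 0% of all genes. At an unadjusted p under 0.05 there were 0 members and 25 genes. Leaving out the arrays labelled DAC8 and REF2, where 1 line stands for ES and 1 for EF and is assumed to vary as the iPS lines do, 8 members and 3272 genes were called for iPS against ES, 4 members and 3591 genes for iPS against EF, and 6 members and 4499 genes for ES against EF. Cdkn1a then changed sign, from differences that with all lines were smaller than their SE and not called. For iPS minus ES it was 1.41, against -0.49 ± 1.71 (SE) with all lines. For ES minus EF it was -3.33, against 0.20 ± 1.71 with all lines. The first of these rests on 1 probe set: by the second (1387391_at) A1 minus DAC2 was -0.08 and A2 minus DAC2 was -0.14, neither called, and by the mean of both probe sets they were 0.70 and 0.60, under 2-fold. By the second probe set DAC2 minus REF1 was -2.30.

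**Figure D4:**
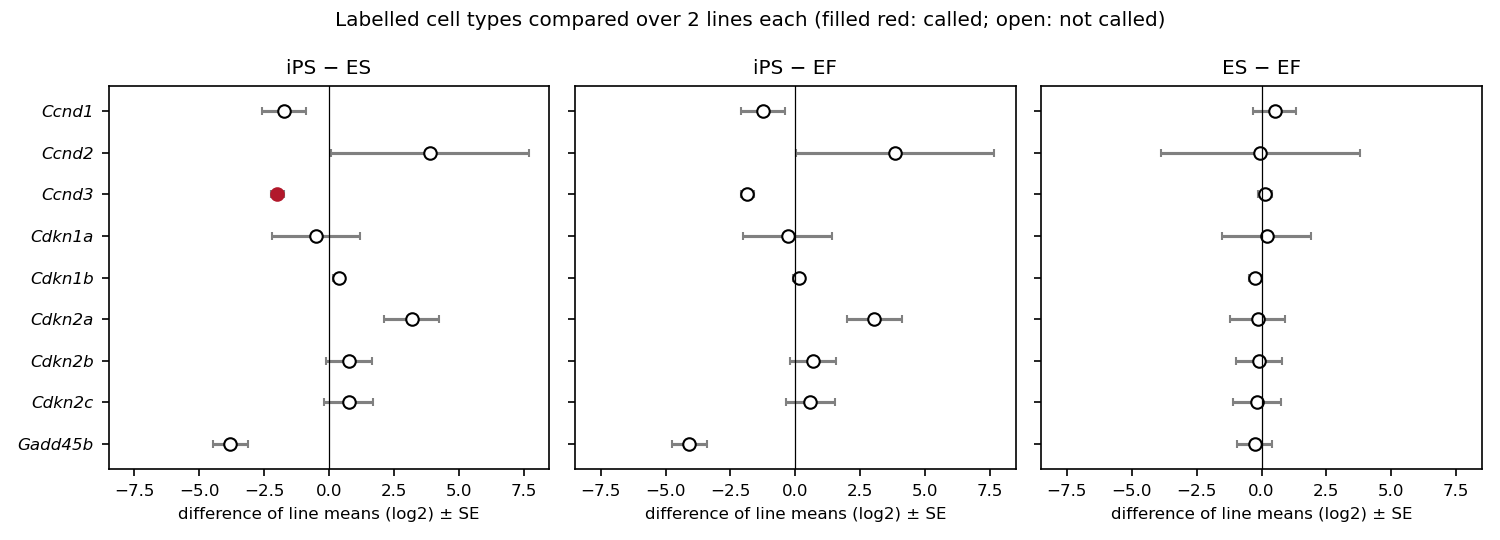
Points are differences between labelled cell types (log2, horizontal axis, over 2 line means each) with bars of 1 SE, for each gene down the vertical axis, in 3 panels; a filled red point is called and an open point is not. Ccnd3 in iPS minus ES (-1.99) is the only called point, and the bar of Ccnd2 spans 3.83 units to each side.

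The cyclins' partners and other cell cycle genes were read from lists chosen by name. Of 9 tested G1 kinases and partners, 26.7% of pair differences were called, beside 27.9% of all genes. Cdk4, the catalytic partner of the D cyclins, lay at 11.14 to 11.51 in all lines with 0 pairs called, and Cdk6 was under 5 in every line (3.22 to 3.33). Ccne2, a cyclin of the next step into S phase, was highest in A1 (8.91) and A2 (9.05) and lowest in DAC2 (6.90) and REF2 (7.02), with 9 pairs called by its brightest probe set and 3 by the mean of its probe sets. Cks2, a small CDK subunit, was at 12.17 to 12.60 in A1, A2, DAC2 and REF2, 10.56 in DAC8 and 10.19 in REF1. Ccna2, the cyclin of S phase and G2, was likewise lowest in REF1 (9.16) and DAC8 (9.36), and Ccna1 reached 5 only in A1 (5.85) and A2 (5.48).

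In the Rb and E2F list 12 genes were tested, and 26.7% of their differences were called. Rb1, the retinoblastoma protein that the D cyclin kinases act on, was highest in A1 (8.68) and A2 (8.66) and lowest in REF1 (6.97). E2f2 was highest in the iPS lines (6.72 in A1, 6.87 in A2) and under 5 in DAC8 (3.29) and REF1 (3.44). Rbl2, an Rb relative, was highest in REF1 (6.75) and DAC8 (6.56), and Tfdp2, an E2F partner, in REF2 (7.03) and DAC2 (6.90). Among the 3 other CDK inhibitors 40% of differences were called. Cdkn1c, the imprinted inhibitor p57, stood at 10.15 in A1, 10.41 in A2, 7.69 in DAC2, 6.13 in DAC8, 7.35 in REF1 and 6.75 in REF2, so that it was highest in the iPS lines. Cdkn2d, the remaining INK4 gene, spanned only 1.04 units, from 7.58 in REF1 to 8.63 in A1, and its 2 calls became 0 with the mean of its probe sets. Cdkn3, a phosphatase of CDKs, was highest in DAC2 (10.67).

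Of the p53 list, 15 of 20 genes were tested and 36.9% of their pair differences were called. Plk2 and Phlda3, which are p53 targets as Cdkn1a is, were highest in DAC8 (10.01 and 10.13) and REF1 (9.76 and 9.87). Fas, a death receptor, was also highest in DAC8 (9.34) and REF1 (8.40), whereas Perp, an epithelial adhesion gene among the p53 targets, was highest in DAC2 (8.20) and REF2 (6.95) and under 5 elsewhere. Between DAC8 and REF2, 7 of the 15 were called higher in DAC8 and 3 lower, and between A1 and DAC2, 1 was called higher in A1 and 3 lower. In the stress and immediate early list of 18 genes 43.7% of differences were called. Dusp1 and Ier3 were highest in DAC8 (12.46 and 11.09) and REF1 (11.92 and 10.90). The direction depended on the line compared. For A1 minus DAC2, 7 of the 18 were called higher and 2 lower, and for A2 minus DAC2, 8 higher and 2 lower. For A1 minus DAC8 they were 3 higher and 7 lower, and for A2 minus DAC8, 1 higher and 9 lower. For A1 minus REF2 they were 6 higher and 3 lower.

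The immediate early genes Fos and Egr1, like Ccnd1, differed between the iPS lines. Fos stood at 10.71 in A1 and 8.80 in A2 (difference 1.90 ± 0.08, SE, limma adjusted p = 2.08e-08, 11 pairs called, 7 with the mean of its probe sets), and Egr1 at 9.81 in A1 and 7.76 in A2 (2.06 ± 0.12, adjusted p = 2.09e-07). In DAC2, where Ccnd1 was highest, both were under 5 (3.57 and 3.73). Of 12 tested regulators of the members 46.1% of differences were called. Myc, which represses Cdkn1a and Cdkn2b in other systems, was under 5 in A1 (3.57) and A2 (3.81). It stood at 6.51 in DAC2, 9.37 in DAC8, 9.19 in REF1 and 8.56 in REF2. Mycn, of the same family, had another order, with 10 pairs called. It was at 7.69 in A1, 7.66 in A2, 8.87 in DAC2, 6.67 in DAC8, 5.74 in REF1 and 8.68 in REF2. Cbx7, a Polycomb subunit known to repress the Cdkn2a locus, stood under 5 in A1, A2, DAC8 and REF1, at 8.57 in DAC2 and at 8.34 in REF2. Lef1 was likewise highest in REF2 (10.13) and DAC2 (9.84). The other tested Polycomb genes of the list did not share the order of Cbx7. Ezh2 was highest in A2 (10.14) and A1 (10.10) and lowest in REF1 (8.28), with 7 pairs called. Cbx8 and Ring1 had 0 pairs called. For the cell types, 1 gene of all these lists was called, Smad7 in iPS against ES, and it was picked out after its values were seen.

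**Figure D5:**
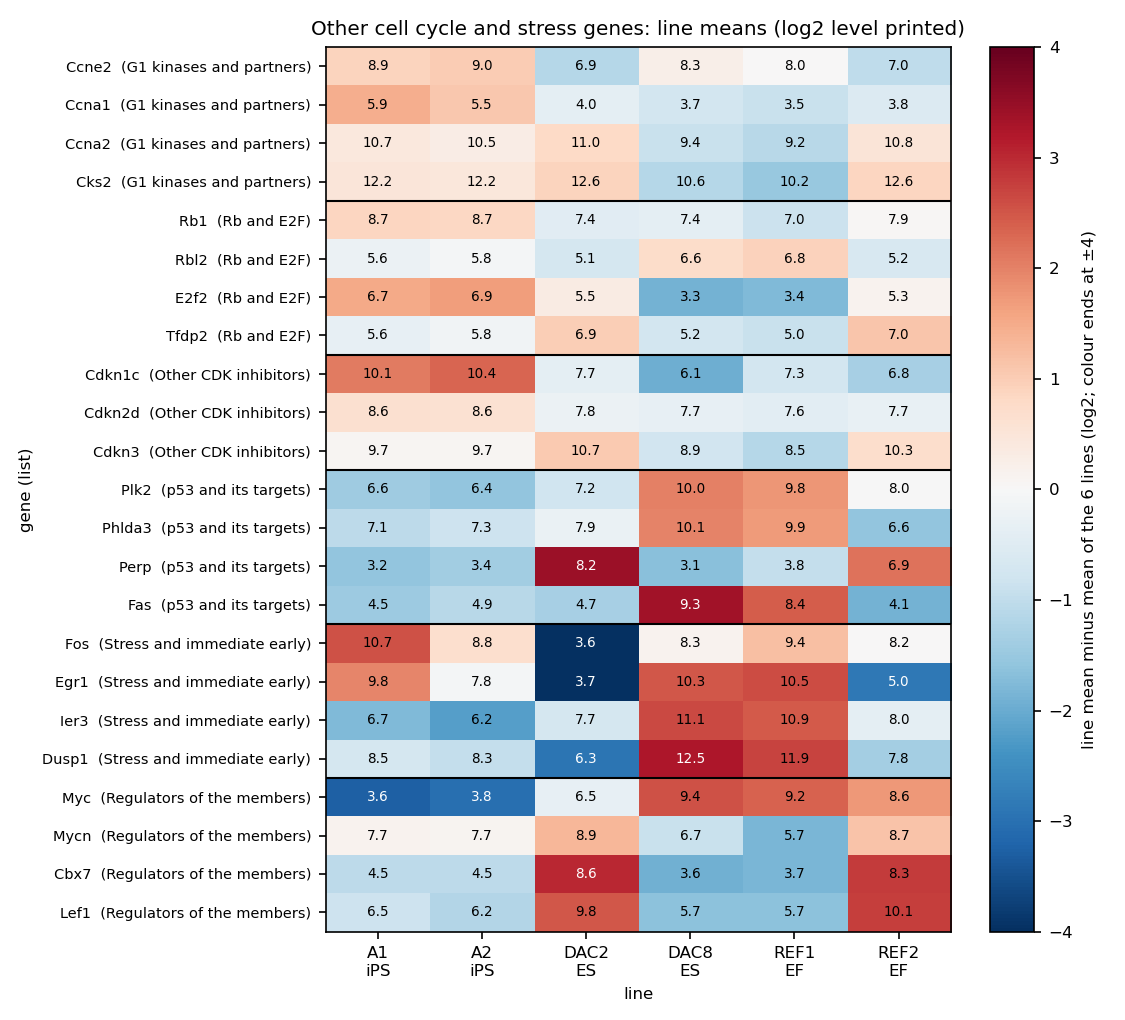
Each cell prints the mean log2 level of 1 gene (rows, with its list in brackets) in 1 line (columns), and its colour gives that mean minus the mean over the 6 lines, ending at 4 units. Cdkn1c and E2f2 are highest in A1 and A2, Cbx7 and Lef1 in DAC2 and REF2, and Plk2, Phlda3, Ier3 and Dusp1 in DAC8 and REF1.

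Among the members, line means of Ccnd2 correlated with those of Cdkn2b at 0.98 and of Cdkn2c at 0.98 (Pearson's r, n = 6 lines), and Ccnd3 with Gadd45b at 0.94, as a description only. Correlations used the deposited values, which for Ccnd2 and Cdkn2b were under the floor in DAC2 and REF2. Those of Cdkn2c are by its main probe set, whose order the second did not share. With 6 points and several lines of like profile, high values are common. Among 3334 other tested genes that span at least 2 log2 units, those most like each member were as follows. For Ccnd1 they were C3h20orf96 (0.95), Klf4 (0.94) and Dusp5 (0.94), and for Ccnd2 Ampd2, Emp1 and Nfia (all 0.999). For Ccnd3 they were Npl, Rassf8 and Soat1 (0.995 to 0.999), and for Gadd45b Klf6, Tshz3 and Farp1 (0.995 to 0.999). For Cdkn1a they were Atosb, Bdnf and Mcam (0.997 to 0.999), for Cdkn2a Efnb1, Znrf1 and Pcbp4 (0.999), for Cdkn2b Qpct, Sh3pxd2b and Cers6 (0.998 to 0.999), and for Cdkn2c Pxmp4, Mpdz and Pdzrn3 (0.996 to 0.997). Klf4, a member of the pluripotency marker list, was, like Ccnd1, lowest in A2 (6.15) and highest in DAC2 (10.01).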

How the data were processed

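RNA of 12 single-colour Affymetrix arrays (2 per line, 6 lines) was used. The values are log2 signals of 31099 probe sets as deposited by the authors. They were made with RMA and Partek 6.2, per the submitters' processing notes. RMA subtracts background, scales the arrays to each other and combines the probes of a set, which shrinks differences of dim genes. Depth does not apply to arrays, whose number limits the precision. Groups came from the labels. Gene names came from the platform annotation: 20832 probe sets had 1 symbol, 436 several, and 9831 are unnamed here. 20764 were matched by gene identifier to the RefSeq gene table of GRCr8, from which positions were taken. Of several probe sets of a gene the brightest on average was used (14218 genes), and 3217 whose highest line mean was under 5 were left out, which left 11001. limma 3.58.1 (R 4.3.3) with empirical Bayes was fitted with the 6 lines as the factor, adjusted by Benjamini-Hochberg over all genes and 15 pairs, and separately on line means with cell type as the factor, adjusted over genes. A call was an adjusted p under 0.05 and at least 2-fold. The fits were checked on simulated data. The simulated lines of a cell type varied less than those of most members here. The check therefore does not show how the cell type fit does on these data. Named were the 9 members, up to 4 genes of each list with the widest range over lines among those called in a pair, and for each member spanning at least 2 log2 units the 3 genes that correlated best with it. Cdk4, Cdk6, Gadd45a, Gadd45g, Smad7, Ezh2, Cbx8 and Ring1 were added after their values were seen. The members, lists, tests and alternatives were chosen with earlier results of these data known. The alternatives were another filter, scaling, probe set rule or variance model, a replicate block, arrays or lines left out, and, added after the data were seen, every probe set tested. The replicate numbers were not taken to pair arrays, and the labels do not say whether they do. The deviations of same-numbered arrays correlated at -0.08 to 0.24 over 15 pairs of lines, 3 of them above 0.1.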

Additional observations from a re-analysis of the deposited data

How the results depend on the processing

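Between lines, 76 of 135 member differences were called as reported, and likewise with quantile normalization, equal array medians, no filter, a filter at 6 and the replicate block, 76 to 77 when single arrays were left out, 63 with the mean of probe sets and 109 with no fold minimum. The 13 calls lost with the mean of probe sets were 8 of Cdkn2c, 4 of Cdkn1a and 1 of Ccnd1. Over all genes 115309 differences (69.9% of those tested) passed without the fold minimum, against 45984 with it. No member difference between lines that was called, as reported or under an alternative, changed sign. Counted over differences and alternatives, 28 sign changes between lines had no call on either side. Cell type counts depended on the fit. For iPS against ES, 1 member was called. The count was 0 with a filter at 6, with only the 2 types fitted and without each single line, 0 to 1 with single arrays left out, 3 with the line as a random block and also with the line block and replicate block, 4 with arrays as independent and 8 without DAC8 and REF2. Genes called were 249, and 512, 1518 and 469 under the line block, arrays as independent and both blocks, 101 with only 2 types or without REF1 or REF2, 0 without A1, A2, DAC2 or DAC8, and 3272 without DAC8 and REF2. For iPS against EF, 0 members were called, 1 with no filter, quantile normalization, the mean of probe sets or an intensity trend, 0 to 1 with single arrays left out, 3 under the line block, arrays as independent and both blocks, and 4 without DAC8 and REF2. Genes called were 278, and 556, 1585 and 500 under those 3 fits, 92 with only 2 types or without DAC2 or DAC8, 0 without A1, A2, REF1 or REF2, and 3591 without both. For ES against EF, 0 members and 0 genes became 6 members and 4499 genes without DAC8 and REF2, and 2 genes with arrays as independent. For cell types, 26 sign changes over differences and alternatives had no call on either side. The only others were of Cdkn1a without DAC8 and REF2, from differences not called with all lines. There iPS minus ES was 1.41, by 1 of its 2 probe sets (A1 minus DAC2 was -0.08 by the other), and ES minus EF was -3.33. The cause of these changes was not tested. The replicate block changed no call between lines. With both replicate numbers in every line, it cannot change a difference between lines. Nor can a filter change the difference of a member. These unchanged member counts could have moved only through the adjusted p, while the fold minimum decided every call. Each line had 2 arrays and each type 2 lines, which limits the precision.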

Other observations

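Beyond Ccnd1, Fos and Egr1, 22 other genes were called between the iPS lines A1 and A2, and those named here were picked out after their values were seen. Hspa1a, an inducible heat shock protein, stood at 8.09 in A1 and 5.44 in A2 (difference 2.65 ± 0.09, SE, limma adjusted p = 7.03e-09), the second largest of the 25. The immediate early genes Fosb and Egr2 were also called, at 6.01 and 5.25 in A1 and under 5 in A2. Ccn1, a matricellular gene, was higher by 1.51 ± 0.09. Of the 25 genes 15 were higher in A1 and 10 lower, with Lgals3, a galectin, at 6.19 in A1 and 7.24 in A2. Ccnd1 ranked 9 by size. Ranks and counts are on the deposited values, some of them under 5. Gpat2, the largest, read 5.35 in A1 and 2.65 in A2, and Hoxa9 (4.53 and 2.29) was under 5 in both lines.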
